A study of Mus musculus with 12 samples.

Results

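The core cardiac transcription factor genes are 10 genes whose products bind DNA and specify or maintain the identity of heart muscle cells (cardiomyocytes, CMs). They are *Gata4*, *Gata6*, *Nkx2-5*, *Tbx5*, *Tbx20*, *Hand2*, *Mef2a*, *Mef2d*, *Prdm16* and *Meis2*. Every region of trimethylated lysine 4 of histone H3 (H3K4me3) that carries one of these gene names was taken. This gave 10 peaks, 1 for each gene, of 15848 peaks in all, and all 10 had enough signal to be tested among 15039 peaks. The data are ChIP–seq libraries, in which DNA bound to H3K4me3 is precipitated with an antibody and sequenced, from adult mouse CM nuclei sorted by FACS for the nuclear marker PCM1. Both genotypes carry the *αMHC-Cre* transgene, in which a promoter of heart muscle drives the Cre recombinase. CtrlCre mice (*αMHC-Cre* pos/+; *Cpt1b*+/+) gave 3 libraries, and Cpt1bcKO mice (*αMHC-Cre* pos/+; *Cpt1b* fl/fl) gave 3. In Cpt1bcKO mice, *Cpt1b*, whose product is the muscle enzyme for mitochondrial uptake of long-chain fatty acids, is inactivated in CMs from embryonic stages. Age is given only as adult. The paper states that its in vivo studies used at least 3 biological replicates. The labels do not say whether a library is 1 animal or a pool, so the spread between libraries may not be that between single animals.

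H3K4me3 marks active promoters, usually as a short peak just after the transcription start. At genes that define a cell type it often spreads over a much longer stretch, called a broad domain. GATA4, NKX2-5, TBX5, HAND2 and MEF2 proteins bind heart enhancers together and activate genes of contraction and conduction, and several of them also bind the genes of one another.

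Each value is a normalized count, the count that the authors made for a peak from read coverage, divided by a size factor of the library. A size factor corrects for depth, and a gain or loss shared by all peaks is therefore not visible. Counts in peaks ranged from 763133 in CtrlCre replicate 2 to 2766416 in Cpt1bcKO replicate 2. The counting error of a member peak, for a single library, lay between 2.29% and 10.4% if each count is taken as 1 independent read, which the summary of coverage does not ensure. Genotypes were compared with limma on log2(value + 1), and p-values were adjusted by the Benjamini–Hochberg method over all 15039 tested peaks. A peak with an adjusted p under 0.05 is said to have risen or fallen. The 10 CM marker genes all had a tested peak, with summed values of 7893 to 9619 in CtrlCre and 6001 to 8737 in Cpt1bcKO libraries, and the *Actc1* peak among them fell. None of 6 leukocyte markers had a peak, and 1 of 8 fibroblast markers (summed values of 58 to 69 and 56 to 63) and 1 of 8 endothelial markers (39 to 91 and 31 to 51) did. Of 6 mural cell markers 3 had a peak, with summed values of 140 to 217 in CtrlCre and 32 to 80 in Cpt1bcKO, where *Acta2* fell. The part of other cells in the results was not tested. At the targeted gene, the *Cpt1b* peak rose from 428, 407 and 436 in CtrlCre replicates 1 to 3 to 572, 689 and 568 in Cpt1bcKO replicates 1 to 3 (log2 difference 0.52, SE 0.10, limma adjusted p = 0.00357). The floxed exons are exons 10 and 11, and in the transcript Cpt1b-201 these end 455 and 1118 bases outside the peak, which therefore does not check the deletion.

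The promoters of these genes differ in their bases. The 250 bases before the start were available for 7 of the 10 genes, from RefSeq on GRCm38.p6, and 4 are shown: the 3 that hold a motif match, and *Mef2a*, the narrowest peak of the members. Capitals mark a match, on either strand, to 1 of 5 short motifs of the members' own protein families.
*Hand2* (chr8:57320733-57320982, plus strand): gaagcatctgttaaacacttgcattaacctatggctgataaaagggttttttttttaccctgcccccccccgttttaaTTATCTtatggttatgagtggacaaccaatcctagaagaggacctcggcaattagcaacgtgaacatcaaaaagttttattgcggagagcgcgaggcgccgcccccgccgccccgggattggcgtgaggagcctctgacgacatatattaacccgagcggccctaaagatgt
*Nkx2-5* (chr17:26841566-26841815, minus strand): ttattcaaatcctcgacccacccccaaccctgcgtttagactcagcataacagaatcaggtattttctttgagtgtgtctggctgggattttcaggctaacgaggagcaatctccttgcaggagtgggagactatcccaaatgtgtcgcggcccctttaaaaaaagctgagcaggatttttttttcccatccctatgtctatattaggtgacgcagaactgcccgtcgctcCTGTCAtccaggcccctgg
*Prdm16* (chr4:154636874-154637123, minus strand): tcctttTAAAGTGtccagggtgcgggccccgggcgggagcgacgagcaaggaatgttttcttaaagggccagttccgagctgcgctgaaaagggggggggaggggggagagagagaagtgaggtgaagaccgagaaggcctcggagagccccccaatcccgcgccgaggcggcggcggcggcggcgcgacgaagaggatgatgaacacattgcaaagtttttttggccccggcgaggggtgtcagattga
*Mef2a* (chr7:67372859-67373108, minus strand): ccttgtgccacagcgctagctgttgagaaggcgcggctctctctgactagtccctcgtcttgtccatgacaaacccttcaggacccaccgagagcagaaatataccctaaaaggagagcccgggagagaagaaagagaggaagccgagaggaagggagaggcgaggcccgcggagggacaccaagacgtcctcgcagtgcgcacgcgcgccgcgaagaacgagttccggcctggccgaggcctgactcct
*Hand2* holds 15 CpG, *Nkx2-5* 8, *Prdm16* 22 and *Mef2a* 21, beside a median of 6 over 32851 promoters. All 4 windows lie inside the H3K4me3 peak of their gene. Each motif was searched on both strands. The motif of GATA factors was AGATAA, which 9.99% of all promoters held. For T-box factors the letters were AGGTGT, present in 11.8% of promoters. The NKX2 family was represented by TNAAGTG, where N is any base, found in 10.1% of promoters. MEF2 factors were searched as TAAAAATA, which occurred in 2.45% of promoters. Finally, the MEIS family was searched as TGACAG, which 15.9% of promoters contained. *Hand2* held a GATA match on the minus strand, TTATCT, that begins at −172 relative to the start. *Nkx2-5* held a MEIS match on the minus strand, CTGTCA, that begins at −19. *Prdm16* held an NKX2 match, TAAAGTG, that begins at −244. None of the 5 motifs was found in the windows of *Mef2a*, *Tbx20*, *Mef2d* and *Meis2*. A match describes the letters and is not a bound site.

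The member peaks were among the widest in these nuclei. Their median width was 13848 bases, compared with 1514 bases over all tested peaks. All 10 were broad, that is, wider than the 75th percentile of 2222 bases, and 9 were wider than 5 kb. They made up 7 of the 45 tested peaks wider than 10 kb and 6 of the 25 widest. Widths are those of regions merged over both genotypes, so they give no difference between genotypes. The *Hand2* peak, at 23874 bases, was the second widest of all, followed by *Gata4* at 23183 bases. *Mef2a* was the exception, at 2556 bases and rank 2784.

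**Figure D1:**
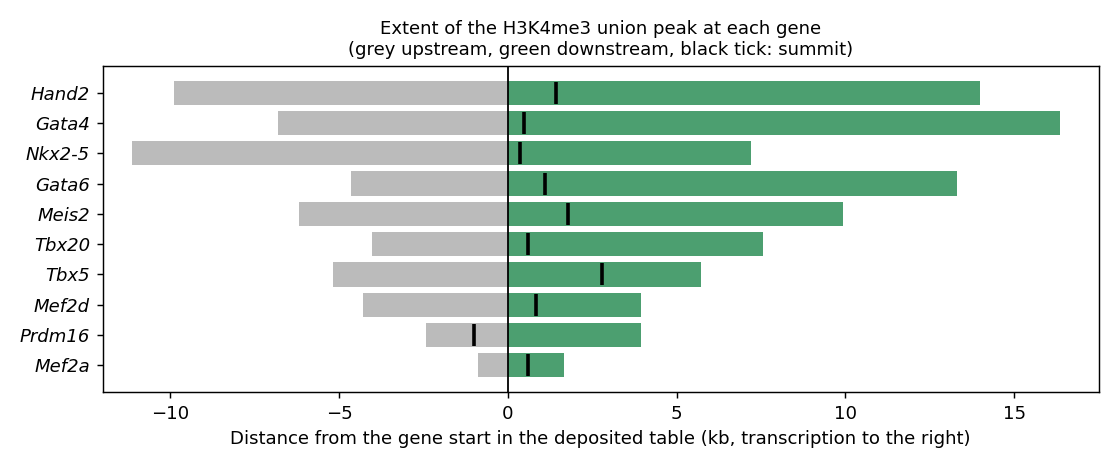
Extent of each H3K4me3 peak in kb before (grey) and after (green) the gene start listed in the deposited table, with the deposited summit as a black tick. The peaks run from 2.56 kb at *Mef2a* to 23.9 kb at *Hand2*. Most reach further downstream of the listed start than upstream of it, with *Nkx2-5* and *Mef2d* as exceptions. At *Gata4* the grey part lies inside the gene in GENCODE.

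The domains were laid out differently around their genes. At *Gata4*, 16374 bases of the peak lay downstream of the gene start listed in the deposited table and 6809 upstream of it. In the gene models of GENCODE *Gata4* begins further upstream, so these 6809 bases lie inside it. By those models 94.7% of the peak was intronic. *Gata6* had a similar split, with 74.1% of the peak downstream of its listed start. At *Nkx2-5*, a gene of 2902 bases in the deposited table, the peak was far longer than the gene. By the GENCODE models, in which this gene is longer, 65.4% of the peak was intergenic. *Hand2*, at 3651 bases, was also covered whole, and its peak overlapped the noncoding genes *Hand2os1*, *Gm34030* and *5033428I22Rik*. The *Gata6*, *Tbx5*, *Tbx20* and *Prdm16* peaks each overlapped 1 noncoding gene on the opposite strand (*1010001N08Rik*, *Gm43050*, *Gm29824* and *Gm13111*), and *Meis2* overlapped 2 (*2700033N17Rik* and *G630016G05Rik*). Signal of such a shared stretch cannot be ascribed to 1 of the genes.

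Per length, the order of the members was another than by width. In CtrlCre, *Mef2a* had 80.9 ± 2.48 normalized counts per kb (SD, n = 3), the highest of the 10. *Prdm16* followed at 73.4 ± 6.24 per kb. *Gata4* was lowest, at 34.8 ± 1.47 per kb, and *Meis2* had 36.9 ± 2.73 per kb. The other 6 genes lay between 50.8 ± 2.15 (*Tbx5*) and 64.8 ± 6.43 (*Tbx20*) per kb. The CtrlCre values of neighbours in this order overlapped, except between *Mef2a* and *Prdm16* and between *Tbx5* and *Meis2*. Averaged over all 6 libraries, the members ran from 34.4 (*Gata4*) to 76.2 (*Prdm16*) per kb, beside a median of 60.5 over all tested peaks. These 2 members lay above 24.1% and 65.4% of tested peaks, so the members were not unusually high per length.

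**Figure D2:**
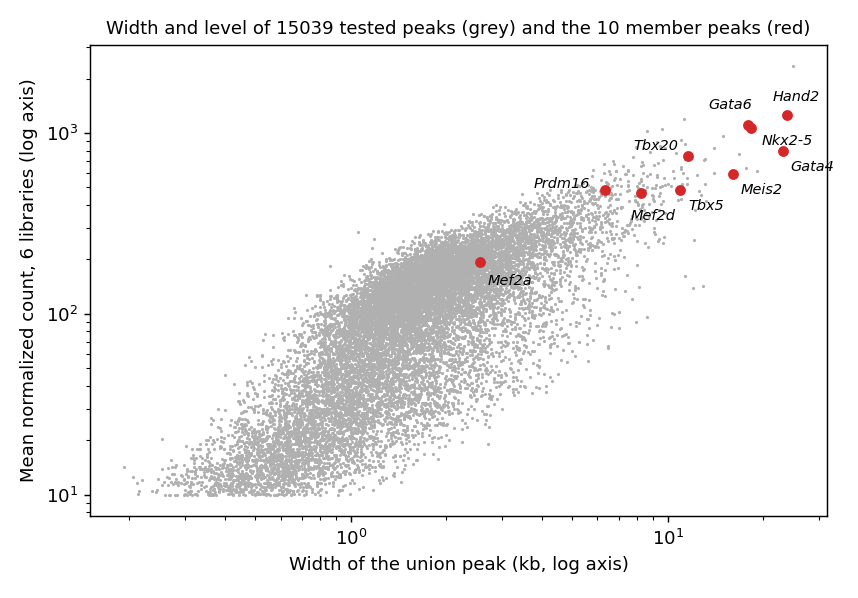
Width of each tested peak in kb against its mean normalized count over 6 libraries, both on log axes, with the members in red. The members lie at the wide and high end, except *Mef2a*, which has a width of 2.56 kb and a mean of 194.5. The count is not divided by width, so wide peaks tend to have high counts.

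The bases under the wide members were poorer in CpG than those of most broad peaks. The median member peak held 28.5 CpG per kb, compared with 42.3 per kb in the median broad peak and 48.6 per kb in the median tested peak. *Mef2a*, at 72.3 per kb, and *Prdm16*, at 62.6 per kb, were above the broad median, and the other 8 below it. The GATA motif AGATAA occurred 0.605 times per kb in the median member and 0.347 times in the median broad peak, and 8 of the 10 members lay above the broad median. The other motifs were counted in the same way. For the T-box motif the medians of members and broad peaks were 0.4337 and 0.4286 per kb, and for MEIS 0.6965 and 0.597. They were 0.5429 and 0.4155 for NKX2, and 0.1486 and 0 for MEF2. Most members are far wider than the 2222 bases at which broad peaks begin, and *Mef2a* and *Prdm16* are the narrowest members. No comparison with peaks of like width was made. These are descriptions of sequence, and their relation to peak width and base composition was not tested.

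The question put to these genes was whether H3K4me3 at the regulators of the CM programme changes once *Cpt1b* is inactivated. *Tbx5* fell, and the other 9 peaks did not pass the test. Over all tested peaks 1.82% fell and 1.11% rose, and of broad peaks 4.66% fell, so 1 fall among 10 broad peaks is close to the background. No member rose in limma, at an unadjusted p under 0.05 or in limma-voom on whole counts. Point estimates were lower in Cpt1bcKO for 8 members and higher for 2. Their median log2 difference was −0.066, beside 0.0057 over all tested peaks and −0.048 over the 496 other tested peaks wider than 5 kb. The standard errors of the members, 0.096 to 0.12, lay around the median of 0.11 for broad peaks, beside 0.15 over all peaks.

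**Figure D3:**
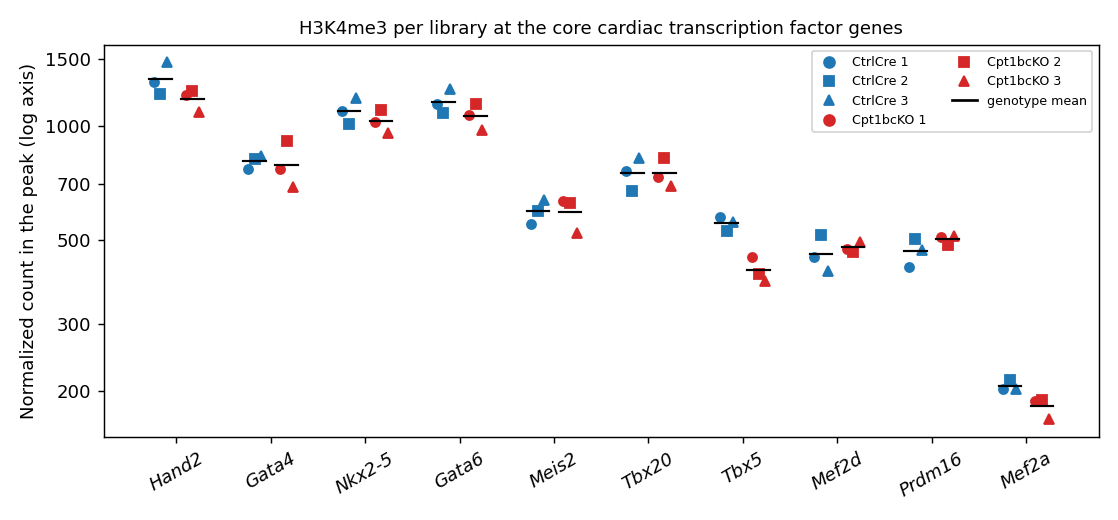
Normalized count in each member peak (log axis) for the 3 CtrlCre (blue) and 3 Cpt1bcKO (red) libraries, with symbols for replicate numbers and lines for genotype means. The groups are apart at *Tbx5* and *Mef2a* and overlap at the other 8 genes. Over all tested peaks, 8.46% are apart in this direction and 7.8% in the other.

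*Tbx5* encodes a T-box activator needed for the growth of the atria and left ventricle and for the conduction system. Its peak (chr5:119829479-119840383) had normalized counts of 574, 528 and 559 in CtrlCre replicates 1 to 3 and of 451, 407 and 391 in Cpt1bcKO replicates 1 to 3. All 3 Cpt1bcKO libraries were below all 3 CtrlCre libraries. The mean fell by 24.8%, from 554 ± 23.5 to 416 ± 31.1 (SD, n = 3 each). The log2 difference was −0.41 with an SE of 0.096 (95% interval −0.61 to −0.21, limma adjusted p = 0.0167). With single libraries left out it stayed between −0.47 and −0.37, but the adjusted p was 0.123 without CtrlCre replicate 1, 0.0514 without Cpt1bcKO replicate 2 and 0.0751 without Cpt1bcKO replicate 3. It was 0.189 when the variance was not allowed to follow the mean. By p the peak ranked 265 of 15039. Among the 45 peaks wider than 10 kb, 7 fell and none rose in limma (11 were lower and 4 higher at an unadjusted p under 0.05, and none rose in limma-voom), and the log2 difference of *Tbx5* was the seventh lowest. The summit lay 2788 bases downstream of the gene start listed in the deposited table, further from that start than at any other member.

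*Tbx20*, a T-box gene whose product is needed to keep adult CMs working, showed no such difference. Its peak (chr9:24766730-24778311) had 761, 672 and 820 in CtrlCre replicates and 733, 823 and 695 in Cpt1bcKO replicates. The groups overlapped, with means of 751 ± 74.5 and 750.3 ± 65.7 (SD, n = 3 each). The 95% interval of the log2 difference, −0.22 to 0.22, leaves room for a change of moderate size. The log2 ratio of *Tbx5* to *Tbx20* within a library was −0.44 ± 0.11 in CtrlCre and −0.85 ± 0.16 in Cpt1bcKO (SD, n = 3 each), without overlap (exact two-sided permutation p = 0.1, adjusted 0.15). With 3 libraries against 3, 0.1 is the smallest p that this test can give. The adjustment covers 3 ratios of related genes.

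*Gata4* and *Gata6* encode zinc finger factors that activate CM genes and can partly replace each other. The *Gata4* peak (chr14:63228897-63252080) had 768, 818 and 833 in CtrlCre replicates and 768, 911 and 687 in Cpt1bcKO replicates. Cpt1bcKO held both the highest and the lowest value, and its SD of 113 was larger than the 34.0 of CtrlCre. The log2 difference was −0.041 (SE 0.11, limma adjusted p = 0.94). The *Gata6* peak (chr18:11047864-11065817) had 1142, 1076 and 1249 in CtrlCre and 1063, 1139 and 971 in Cpt1bcKO. CtrlCre replicates 1 and 3 lay above all Cpt1bcKO libraries and replicate 2 among them, and the log2 difference was −0.13 (SE 0.11, limma adjusted p = 0.723). The ratio of *Gata4* to *Gata6* differed by 0.087 on the log2 scale, with overlapping groups (exact two-sided permutation p = 0.4, adjusted 0.4).

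*Nkx2-5* encodes the NK2 homeodomain factor of the heart, a partner of GATA4 and TBX5. Its peak (chr17:26834365-26852683) had 1090, 1007 and 1182 in CtrlCre replicates and 1024, 1096 and 958 in Cpt1bcKO replicates. The groups overlapped, and the log2 difference was −0.090 (SE 0.11, limma adjusted p = 0.822). *Hand2* encodes a basic helix-loop-helix factor of the right ventricle. Its peak (chr8:57311086-57334960) had the highest values of the members, with 1304, 1207 and 1465 in CtrlCre and 1205, 1236 and 1085 in Cpt1bcKO. Of the Cpt1bcKO values 1 lay within the CtrlCre range and 2 below it. The mean was 1325 ± 130.3 in CtrlCre and 1175 ± 79.8 in Cpt1bcKO (SD, n = 3 each), a log2 difference of −0.17 (SE 0.12) that did not pass (limma adjusted p = 0.613).

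*Mef2a* and *Mef2d* encode MADS box factors of muscle, which activate genes of contraction and energy metabolism. The *Mef2a* peak (chr7:67371197-67373753) had 203, 214 and 203 in CtrlCre replicates and 188, 190 and 169 in Cpt1bcKO replicates. All Cpt1bcKO values were below all CtrlCre values, which held for 8.46% of all tested peaks in this direction and 7.8% in the other. The log2 difference of −0.18 (SE 0.10, 95% interval −0.39 to 0.028) did not pass (limma adjusted p = 0.478). The *Mef2d* peak (chr3:88138077-88146319) had 450, 516 and 413 in CtrlCre and 474, 465 and 495 in Cpt1bcKO. The CtrlCre values lay on both sides of the Cpt1bcKO values (log2 difference 0.062, SE 0.10, limma adjusted p = 0.872). The log2 ratio of *Mef2a* to *Mef2d* was −1.14 ± 0.12 in CtrlCre and −1.39 ± 0.14 in Cpt1bcKO (SD, n = 3 each), without overlap (exact two-sided permutation p = 0.1, adjusted 0.15).

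*Prdm16* encodes a zinc finger protein of the PR domain family that acts in compact myocardium and in brown fat. Its peak (chr4:154632933-154639293) had 425, 504 and 471 in CtrlCre replicates and 510, 485 and 512 in Cpt1bcKO replicates. It had the highest estimate of the members, a log2 difference of 0.11 (SE 0.097), with overlapping groups (limma adjusted p = 0.723). *Meis2* encodes a TALE homeodomain factor that binds DNA with PBX and HOX proteins. Its peak (chr2:116055906-116072020) had 550, 595 and 638 in CtrlCre and 634, 626 and 521 in Cpt1bcKO. Means were 594 ± 44.0 and 594 ± 63.1 (SD, n = 3 each), and the 95% interval of the log2 difference ran from −0.22 to 0.21.

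**Figure D4:**
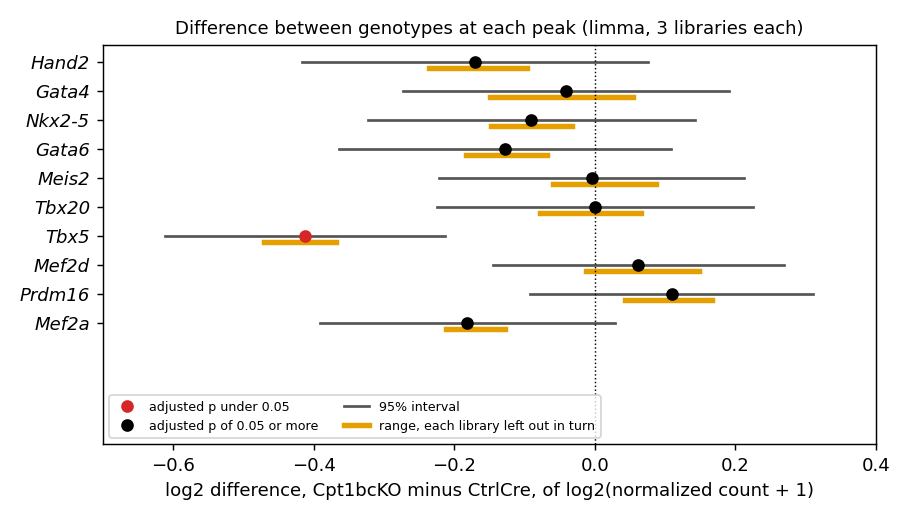
Log2 difference of each member peak, Cpt1bcKO minus CtrlCre, with its 95% interval (grey) and the range when each library is left out in turn (orange). The interval lies below 0 at *Tbx5* and includes 0 at the other 9 genes.

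The lean towards lower values differed between libraries. Cpt1bcKO replicate 3 was the lowest library at 7 of the 10 members, and CtrlCre replicate 3 was the highest at 4. Relative to each peak's own mean, the median member stood at −0.18 on the log2 scale in Cpt1bcKO replicate 3 and at 0.12 in CtrlCre replicate 3. In the other 4 libraries it stood between −0.045 and 0.034. Other tested peaks wider than 5 kb had medians of −0.10 and 0.073 in these libraries. In Cpt1bcKO replicate 2 they stood at 0.065 and the members at 0.025. Without Cpt1bcKO replicate 3 the median log2 difference of the members was −0.0027, and without CtrlCre replicate 3 it was −0.025. It was −0.14 without Cpt1bcKO replicate 2 and −0.11 without CtrlCre replicate 2, beside −0.066 with all libraries. *Tbx5* was below its own mean in all 3 Cpt1bcKO libraries and above it in all 3 CtrlCre libraries. The members together took 0.368% of the signal in peaks in Cpt1bcKO replicate 3 and 0.440% in CtrlCre replicate 3, the lowest and highest shares.

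**Figure D5:**
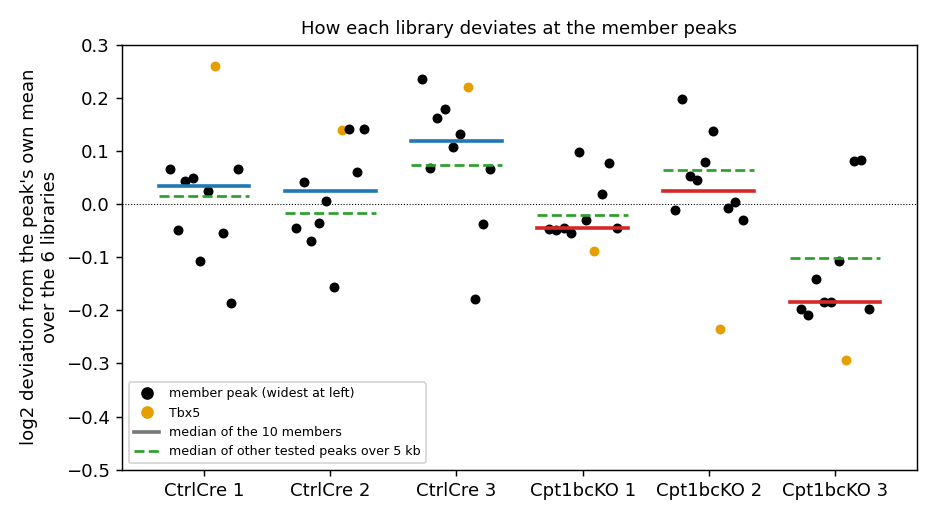
Log2 deviation of each member peak from its own mean in each of the 6 libraries, with *Tbx5* in orange, the median of the members as a solid line and that of other tested peaks over 5 kb as a dashed line. The solid line lies at −0.18 in Cpt1bcKO 3 and at 0.12 in CtrlCre 3.

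Peaks near the member genes were read next. Within 50 kb of the genes lay 23 other peaks at 8 of the 10 loci, of which 19 carried no gene name and 22 were tested. Of these, 1 fell and 1 rose, where 1.82% and 1.11% of all tested peaks did. Upstream of *Mef2d*, centred 8774 bases before its 5′ end in GENCODE, an intergenic peak (chr3:88133134-88134062) had 40, 30 and 46 in CtrlCre replicates and 5, 19 and 10 in Cpt1bcKO replicates. All Cpt1bcKO values were lower, and the log2 difference was −1.83 (SE 0.40, limma adjusted p = 0.0112, 0.0045 to 0.159 over the alternatives). Upstream of *Gata4*, centred 39032 bases before its 5′ end in GENCODE, an intergenic peak (chr14:63309394-63312054) had 8, 23 and 7 in CtrlCre and 38, 40 and 31 in Cpt1bcKO. All Cpt1bcKO values were higher, and the log2 difference was 1.63 (SE 0.40, limma adjusted p = 0.023, 0.00076 to 0.184 over the alternatives). Both peaks rest on low counts, from 4 to 49 per library at *Mef2d* and from 7 to 61 at *Gata4*. Whether either acts on the neighbouring gene was not tested.

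*Gata4* also had a second domain at its far 5′ end (chr14:63265956-63272203) that holds 3 *Gata4* transcript starts but carries no gene name. It was 6247 bases wide, with 312, 332 and 363 in CtrlCre and 386, 365 and 361 in Cpt1bcKO. Of the Cpt1bcKO values 1 lay within the CtrlCre range and 2 above it, and the log2 difference was 0.14 (SE 0.095, limma adjusted p = 0.582). *Meis2* likewise had an unnamed peak inside the gene (chr2:116049126-116050215), 1089 bases wide, that holds 2 *Meis2* transcript starts. It had 10, 16 and 28 in CtrlCre and 23, 13 and 11 in Cpt1bcKO (log2 difference −0.14, SE 0.435, limma adjusted p = 0.949).

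Genes that work with the members were read from 3 lists. The background is the 1.82% of all tested peaks and 4.66% of broad peaks that fell, and at an unadjusted p under 0.05 the 6.98% and 11.4% that were lower and the 5.84% and 9.08% that were higher. Of 45 other cardiac transcription factor genes 37 had a tested peak, 23 of them broad, and 2 fell and none rose in limma (6 were lower and 1 higher at an unadjusted p under 0.05, and none rose in limma-voom). *Hopx*, which encodes a homeodomain protein without DNA binding of its own, had 218, 181 and 203 in CtrlCre and 135, 98 and 71 in Cpt1bcKO (log2 difference −1.02, SE 0.16, limma adjusted p = 0.000406). *Hey2*, a Notch target that represses atrial genes in the ventricle, had 308, 281 and 288 in CtrlCre and 225, 212 and 214 in Cpt1bcKO (log2 difference −0.43, SE 0.095, limma adjusted p = 0.0115). In both, all Cpt1bcKO values were below all CtrlCre values. The median log2 difference of the 37 genes was −0.024.

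Of 26 cofactor genes 25 were tested, 22 of them broad, and 2 fell and none rose in limma (5 were lower and 2 higher at an unadjusted p under 0.05, and 1 rose in limma-voom). *Fhl2*, a LIM protein of the sarcomere and nucleus, had 1054, 990 and 1079 in CtrlCre and 719, 720 and 541 in Cpt1bcKO (log2 difference −0.67, SE 0.12, limma adjusted p = 0.00131). *Csrp3*, a LIM protein of the Z disc, had 417, 386 and 468 in CtrlCre and 289, 385 and 251 in Cpt1bcKO (log2 difference −0.48, SE 0.12, limma adjusted p = 0.0347). Both are proteins of the contractile apparatus as well as cofactors. The median of the 25 genes was −0.021.

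Of 30 cardiac genes known as targets of the members 23 were tested, all broad, and 2 fell and none rose in limma (10 were lower and 1 higher at an unadjusted p under 0.05, and none rose in limma-voom). *Actc1*, the cardiac actin, had 858, 723 and 924 in CtrlCre and 487, 605 and 307 in Cpt1bcKO (log2 difference −0.89, SE 0.16, limma adjusted p = 0.00179). *Adra1a*, an adrenergic receptor, had 274, 230 and 333 in CtrlCre and 197, 193 and 197 in Cpt1bcKO (log2 difference −0.49, SE 0.11, limma adjusted p = 0.0159). Estimates were lower for 19 of the 23 genes, with a median of −0.24, beside −0.066 for the members. Whether the lists differ from the members was not tested.

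The peaks whose 6 values ran most like those of *Tbx5* were found among 10616 tested peaks with a mean of at least 50. *Sgca*, which encodes α-sarcoglycan of the muscle membrane, had the highest Pearson correlation, 0.995 over 6 libraries. *Borcs7*, a subunit of a complex that positions lysosomes, followed at 0.994, and a peak without a gene name (chrX:142823950-142828526) at 0.988. With 6 libraries, 183 peaks passed 0.9. The choice by likeness to *Tbx5* fixes the direction of these peaks, and the difference at *Borcs7* did not pass (limma adjusted p = 0.284).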

How the data were processed

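The authors trimmed reads (Trimmomatic 0.39), aligned them to mm10 (GRCm38) with STAR 2.6.1d, kept unique unspliced alignments, removed duplicates with Picard 2.21.7 and called peaks with MUSIC (FDR 0.2) relative to input. Peaks of all libraries were merged, so widths cover both genotypes. The deposited value per library is a count, made with bigWigAverageOverBed from coverage, that the authors divided by a DESeq2 size factor and rounded, treated here as a score. The deposited genotype means are a signal that the authors averaged before rounding. Fold changes and p-values of the authors in the same table were not used. Inputs entered no fit.

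Peaks whose mean value reached 10 were fitted with limma 3.58.1 in R 4.3.3 (lmFit, eBayes with trend, log2(value + 1), genotype alone, two-sided, Benjamini–Hochberg over 15039 peaks). This scale understates changes of low peaks. Whole counts were recovered for 15848 peaks from the rounded values and the means, and used for depth and for limma-voom. A floor of 3 counts corresponds to 1.95 to 6.97 normalized counts, and errors of this kind cover counting only. Ratios were compared by exact permutation. The fit was tested on simulated data.

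Members, lists and tests were chosen with earlier results of these data known. All members are named. From each list, genes with an adjusted p under 0.05 are named, and from all peaks with a mean of at least 50 the 3 most like the member of smallest p. Alternatives were pseudocount, filter, quantile normalization, limma-voom, the replicate number as a block, variance trend and leaving out each library. Gene models came from GENCODE, with 12354 of 12371 gene identifiers matched.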

Additional observations from a re-analysis of the deposited data

How the results depend on the processing

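The log2 difference of *Tbx5* stayed negative under all 13 alternatives (−0.47 to −0.37) and passed in 8 of them, with adjusted p between 0.00762 and 0.189 in limma. Its sign could not turn with the filter, the variance trend or the replicate block, which leave the estimate as it is. Nor could it turn with a library left out, because all Cpt1bcKO values lay below all CtrlCre values. Members that fell numbered 0, in place of 1, without a variance trend (adjusted p of *Tbx5* 0.189), with the replicate block (0.0543), and without CtrlCre replicate 1, Cpt1bcKO replicate 2 or Cpt1bcKO replicate 3; over the libraries left out the number was 0 to 1. No member rose under any alternative. Calls over all tested peaks were 441, 43 without a variance trend, 370 with the replicate block and 229 to 431 with a library left out.

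Same-numbered libraries deviated together with correlations of 0.0759, −0.0812 and 0.105, so the numbers were not taken to pair the samples.

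Of 117 values of the other members, 106 kept their direction. The filter, the variance trend and the replicate block leave an estimate as it is, so those values could not turn. With quantile normalization the log2 difference was 0.00068 at *Gata4*, 0.076 at *Tbx20* and 0.0064 at *Meis2*. With single libraries left out it ran from −0.15 to 0.054 at *Gata4*, −0.078 to 0.066 at *Tbx20*, −0.059 to 0.087 at *Meis2* and −0.012 to 0.15 at *Mef2d*. The median of the members was −0.012 with quantile normalization and −0.14 to −0.0027 with a library left out. The pooled SD between replicates was 0.084. It comes from the same libraries, so it cannot judge the moves made by leaving one out. The cause of these changes was not tested. The 3 ratios kept their direction. With a library left out, those of *Tbx5* to *Tbx20* and of *Mef2a* to *Mef2d* could not turn, because their groups did not overlap. All 10 members stayed broad. The calls in the 3 lists were as many with the widest peak of each gene, while in limma-voom 1 cofactor gene rose. The peaks near *Mef2d* and *Gata4* rest on low counts, and a change shared by all peaks cannot be seen.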
